A study of Homo sapiens with 9 samples.

Results

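Caveolae are flask-shaped pits of the plasma membrane, and the genes described here encode their coat and the proteins that bend the membrane around it. The set was defined by name. It holds the caveolins CAV1 and CAV2, the cavins CAVIN1, CAVIN2 and CAVIN3 (listed in the table under their older symbols PTRF, SDPR and PRKCDBP), the EH domain ATPases EHD1, EHD2 and EHD4, and the F-BAR proteins PACSIN2 and PACSIN3. These are 10 of the 26475 genes in the count table, and the rule for membership uses gene names only, although it was drawn up with earlier results of these data known. Of the 10, 9 had enough counts to be tested.

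Caveolin 1 is the integral membrane protein that cells of most non-muscle tissues need to form caveolae, and caveolin 2 assembles with it in mixed oligomers. Cavins form a peripheral coat over the caveolin layer, of which cavin 1 is the indispensable subunit, while cavin 2 and cavin 3 modify the shape, signalling and traffic of the pits. EHD proteins form rings at the neck of the pit and also act in the recycling of endocytosed membrane, and pacsins bind and curve membranes through their F-BAR domain. Caveolae flatten when membrane tension increases, and they are studied as a membrane reserve of mechanically loaded cells.

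RNA was sequenced from hTERT-RPE1, an established human cell line from retinal pigment epithelium that telomerase keeps dividing, 24 h after seeding, in 3 conditions of 3 libraries each. In sh_PIP4K2B, cells on fibronectin-coated glass carried an shRNA against PIP4K2B, the phosphatidylinositol 5-phosphate 4-kinase type 2 beta, and each library came from another hairpin, numbered #1 to #3. Control cells grew on the same coated glass and Soft cells on a fibronectin-coated hydrogel of 2.3 kPa. The paper and the titles give both of them the empty pLKO vector, although their treatment label lists a control shRNA. On the paper's account, sh_PIP4K2B therefore differs from Control and from Soft also in carrying a hairpin at all. The part of this difference in the knock-down values was not tested, since no library is known to carry a hairpin without a target. No label ties the libraries of a condition to separate cultures, so the p-values measure only the spread between these libraries, which may be technical. In the sh_PIP4K2B condition that spread also contains the differences between hairpins. The test took its spread from 1 fit over all 9 libraries. The hairpin libraries therefore also enter the p-values of Soft against Control, and the Soft libraries those of the knock-down. The RNA is from whole cultures, so fewer cells that express a gene and less of its RNA per cell cannot be told apart.

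Library totals ran from 19217346 to 24020799 counts, and 3 counts, taken as the floor, corresponded to 0.125 to 0.156 CPM (a count scaled to a common library total). Values are CPM scaled by edgeR's TMM factors. Every adjusted p is from edgeR's quasi-likelihood F test with Benjamini-Hochberg adjustment over all 13784 tested genes, with a threshold of 0.01, and "called" means below it. Between libraries, log2 CPM had a median SD of 0.081 in Control, 0.073 in Soft and 0.36 with the hairpins. PIP4K2B itself stood at 123, 124 and 120 CPM in Control, at 48.4, 40.9 and 36.6 CPM with hairpins #1, #2 and #3, and at 119, 122 and 127 CPM in Soft. Of 7 markers of retinal pigment epithelium, MITF and OTX2 reached 1 CPM in each condition, while RPE65, TYR and RLBP1 were at or near 0. OTX2 ran from 10.3 to 11.7 CPM in Control, from 15.8 to 19.6 CPM with the hairpins and from 34.8 to 39.4 CPM in Soft. MITF ran from 34.3 to 39.3 CPM in Control, from 24.4 to 37.9 CPM with the hairpins and from 25.9 to 26.4 CPM in Soft. Of 4 epithelial markers, KRT8 and KRT18 were abundant and CDH1 and EPCAM were at or near 0. The summed level of these 4 ran from 1921 to 2073 CPM in Control, from 891 to 943 CPM in Soft and from 708 to 1122 CPM with the hairpins. It was therefore lower in both other conditions than in Control, as most of the caveolar genes were, while OTX2 was higher. The part of these markers in the values of the caveolar genes was not tested. Endothelial cells, adipocytes and muscle are rich in caveolae. No adipocyte or muscle marker reached 1 CPM, and CDH5 was at or near 0. The summed endothelial markers ran from 1.49 to 2.4 CPM in Control, 2.17 to 11 CPM with the hairpins and 8.07 to 9.57 CPM in Soft. In Soft PECAM1 accounted for 4.34 to 5.33 CPM. KDR ran from 1.27 to 1.63 CPM in Control, from 1.78 to 10.2 CPM with the hairpins and from 2.74 to 3.71 CPM in Soft.

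The members lie on 7 chromosomes in GENCODE release 44 on GRCh38, and CAV2 and CAV1 are neighbours. CAV2 spans 116287380 to 116508541 and CAV1 spans 116524994 to 116561179, both on the plus strand of chromosome 7, with 16452 bases between them. Of the cavins, CAVIN1 spans 42402449 to 42423256 on the minus strand of chromosome 17, CAVIN2 spans 191834310 to 191847088 on the minus strand of chromosome 2, and CAVIN3 spans 6318946 to 6320532 on the minus strand of chromosome 11. EHD1 (64851642 to 64888296) and PACSIN3 (47177522 to 47186443) are also on the minus strand of chromosome 11. EHD2 spans 47713422 to 47743134 on the plus strand of chromosome 19, EHD4 spans 41895933 to 41972557 on the minus strand of chromosome 15, and PACSIN2 spans 42835412 to 43015149 on the minus strand of chromosome 22. No 75-base stretch of the canonical transcript of any member, 75 bases being the read length, occurred in a transcript of another gene. CAV1, CAV2, CAVIN2, CAVIN3, EHD1 and EHD4 overlap an annotated gene of the other strand, and reads of such partners could be told from theirs only if the counting used strand, which the sources used here do not state. The spans of CAV2, CAVIN1, EHD2, EHD4, PACSIN2 and PACSIN3 overlap an annotated gene of the same strand, for which a strand setting would not help.

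Promoter sequence from RefSeq (GRCh38.p14) was found for 7 of the 10 members, with 16 start sites. The 250 bases before each start were searched on both strands for the letters GGAATG, the core of the motif bound by TEAD factors, the DNA-binding partners of YAP, and for the CArG box bound by serum response factor. Both factors are known for target genes that respond to adhesion and the actin cytoskeleton. Of 35116 promoter windows in the table, 11.9% held the TEAD letters and 1.16% held a CArG box. Among the members, the TEAD letters stood before the start of CAVIN2 and before 4 alternative starts of PACSIN2, 3 of which have overlapping windows. A CArG box stood at position -33 before the canonical start of EHD1, and the same letters contain TATAAA. Its window lies inside the annotated span of EHD1 and may overlap exons of other EHD1 transcripts. Neither motif was in the windows of CAV1, CAV2, EHD2 or EHD4. The windows of 3 genes are printed, 5′ to 3′ on the gene's strand, for the member with the lowest fitted change on the gel (CAVIN2), for EHD4, and for EHD2, a close relative of EHD4 whose level changed little. They lie at chr2:191847089-191847338 (minus strand), chr15:41972558-41972807 (minus strand) and chr19:47713172-47713421 (plus strand). Capitals mark the TEAD letters, which begin at position -16 from the CAVIN2 start.
CAVIN2: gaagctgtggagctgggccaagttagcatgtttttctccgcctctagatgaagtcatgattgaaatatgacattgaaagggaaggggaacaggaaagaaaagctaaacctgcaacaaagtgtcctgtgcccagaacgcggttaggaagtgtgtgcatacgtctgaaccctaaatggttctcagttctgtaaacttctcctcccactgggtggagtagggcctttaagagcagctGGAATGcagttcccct
EHD4: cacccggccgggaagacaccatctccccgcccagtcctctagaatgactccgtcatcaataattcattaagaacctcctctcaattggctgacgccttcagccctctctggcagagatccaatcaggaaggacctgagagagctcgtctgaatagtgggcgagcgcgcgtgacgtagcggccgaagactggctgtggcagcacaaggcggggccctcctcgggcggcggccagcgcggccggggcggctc
EHD2: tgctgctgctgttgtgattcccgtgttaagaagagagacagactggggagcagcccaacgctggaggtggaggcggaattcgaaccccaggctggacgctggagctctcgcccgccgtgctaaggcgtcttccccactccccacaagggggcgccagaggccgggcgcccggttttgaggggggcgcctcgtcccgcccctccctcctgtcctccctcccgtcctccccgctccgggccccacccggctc

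On the soft gel both caveolins, CAVIN1, EHD1 and EHD4 were lower by 1.98-fold (CAV2) to 2.35-fold (EHD1), and CAVIN2 was lower by 9.5-fold. EHD2, PACSIN2 and PACSIN3 were lower by 1.18-fold, 1.29-fold and 1.2-fold, which did not pass the test. All 9 tested members were lower in every Soft library than in every Control library, against 39.1% of all tested genes. By the test 6 of the 9 were called lower, against 14.8% of all tested genes, and these were CAV1, CAV2, CAVIN1, CAVIN2, EHD1 and EHD4. None was called higher by edgeR or by DESeq2, nor had any a higher level at an unadjusted p under 0.05, where 15.8% of all tested genes were called higher. The median log2 fold change of the 9 was -1.10, beside 0.01 for all tested genes. PIP4K2B knock-down gave a less uniform picture. Every hairpin library was below every Control library for 6 of the 9 (CAVIN1, CAVIN2, EHD1, EHD4, PACSIN2 and PACSIN3), against 16.7% of all tested genes. PACSIN3 alone, 1 of the 9, was called lower, against 2.77% of all tested genes. None was called higher by edgeR or DESeq2 or reached an unadjusted p under 0.05 in that direction, beside 2.76% of all tested genes called higher. The median was -0.43 for the 9 and 0.05 for all tested genes. The count of calls in the knock-down rests on single libraries. It was 0 without any single Control or Soft library, 4 without hairpin #1 (CAVIN1, EHD1 and PACSIN3 lower and CAV2 higher), 2 without hairpin #2 (CAVIN2 and PACSIN3) and 3 without hairpin #3 (EHD4, PACSIN2 and PACSIN3). The share of all tested genes was not taken in these fits, so it is not known if the counts depart from it. Both comparisons use the same Control libraries and are not independent of each other.

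**Figure D1:**
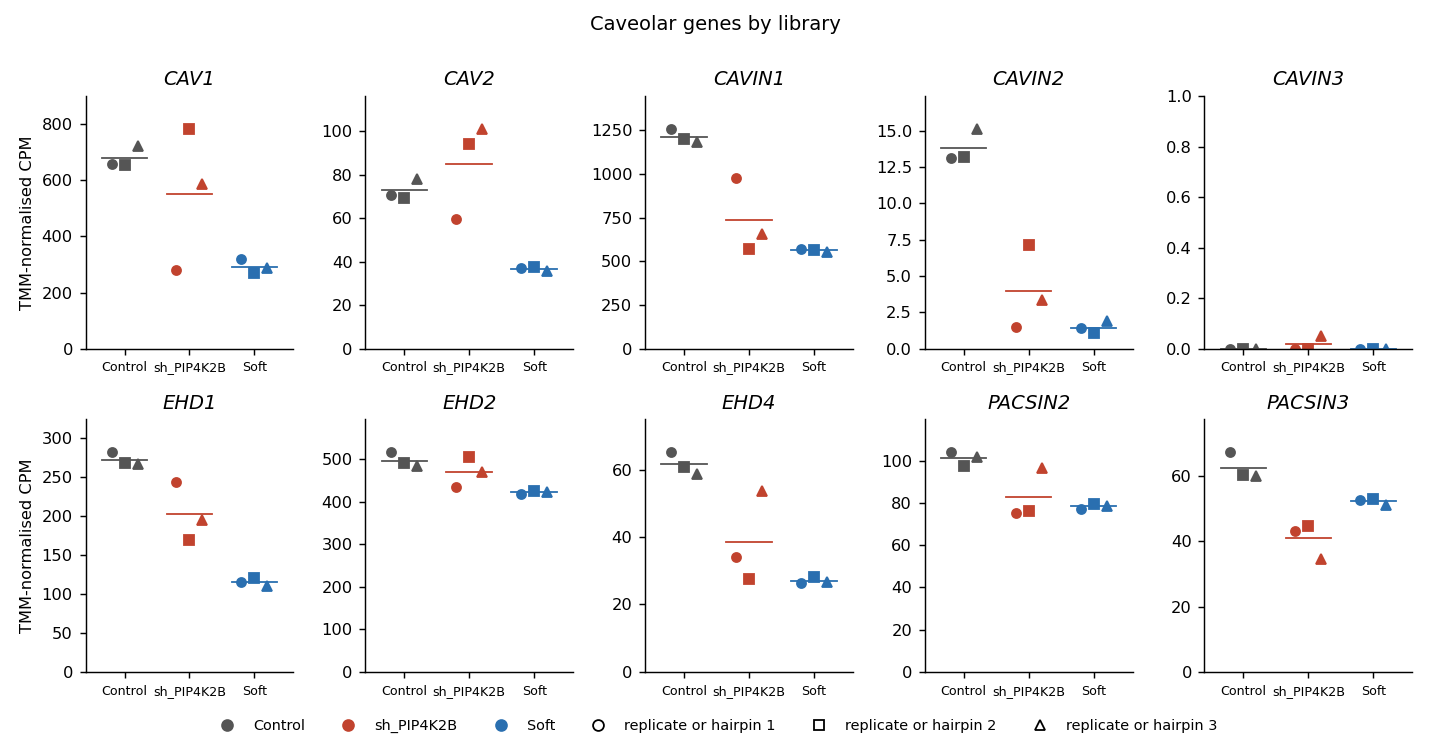
TMM-normalised CPM (vertical axes, linear, from 0) of each of the 10 caveolar genes in the 9 libraries, by condition. Points are single libraries, with the shape giving the replicate or hairpin number, and horizontal lines are the means of 3 libraries. Soft libraries lie close together below Control for CAV1 (270 to 318 CPM against 656 to 722 CPM), while the hairpin libraries of the same gene run from 282 to 783 CPM.

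CAV1, the main structural caveolin, was at 657, 656 and 722 CPM in Control and at 318, 270 and 286 CPM in Soft. With hairpins #1, #2 and #3 it was at 282, 783 and 586 CPM. Hairpin #1 thus lay among the Soft libraries, hairpin #2 above all Control libraries, and hairpin #3 between Control and Soft. The means were 679 ± 37.8 (Control), 291 ± 24.2 (Soft) and 550 ± 252 CPM (sh_PIP4K2B, SD, n = 3 each). In Soft the fitted log2 fold change stood at -1.22 (SE 0.30, adjusted p = 0.0084, edgeR), a 2.33-fold lower level. This call is close to the threshold in the fit over all 9 libraries, whose spread includes the hairpins, and 10 of 18 alternatives lost it. Among these were the fits without any single Control or Soft library or without hairpin #3. Their adjusted p-values were 0.01 to 0.036 (edgeR), at values of -1.29 to -1.17. The call was kept without hairpin #1 or #2 (adjusted p = 5.5e-05 and 0.0032, edgeR). Soft and Control fitted alone also kept it (adjusted p = 2.6e-11, edgeR), and the value was -1.23 in each of these 3 fits. With the knock-down the value was -0.30 (SE 0.29, adjusted p = 0.51, edgeR), and without hairpin #1 it turned to 0.01.

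CAV2, which forms oligomers with caveolin 1, was at 70.8, 69.5 and 78.1 CPM in Control and at 37.3, 37.6 and 35.6 CPM in Soft. The hairpin libraries were at 59.5, 94 and 101 CPM, so that hairpin #1 was below Control and the other two were above it. The means were 72.8 ± 4.62 (Control), 36.8 ± 1.1 (Soft) and 84.7 ± 22.1 CPM (sh_PIP4K2B, SD, n = 3 each). CAV2 fell on the gel, with a log2 fold change of -0.98 (SE 0.18, adjusted p = 0.0018, edgeR), and without Soft replicate 3 the adjusted p was 0.011. In the knock-down the fitted log2 fold change stood at 0.22 (SE 0.18, adjusted p = 0.42, edgeR). Without hairpin #1 it was 0.42 and passed the threshold (adjusted p = 0.0069, edgeR), whereas without #2 it was 0.14 and without #3 it was 0.07 (adjusted p = 0.63 and 0.77, edgeR). The ratio of CAV2 to CAV1, taken per kilobase of canonical transcript, was 0.0896, 0.0881 and 0.0899 in Control, 0.175, 0.0998 and 0.143 with the hairpins, and 0.0977, 0.116 and 0.104 in Soft. It was higher in every hairpin and every Soft library than in any Control library, most of all with hairpin #1, where CAV1 was lowest among the hairpins.

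CAVIN1, the cavin without which caveolae do not form, had the highest level per kilobase of all members in Control. Its values were 1258, 1201 and 1181 CPM in Control and 571, 566 and 556 CPM in Soft, and 977, 568 and 659 CPM with hairpins #1, #2 and #3. Every hairpin library was below Control, with #2 and #3 near the Soft level and #1 closer to Control. The means were 1213 ± 40.3 (Control), 564 ± 7.47 (Soft) and 735 ± 215 CPM (sh_PIP4K2B, SD, n = 3 each). In Soft CAVIN1 fell by 1.10 on the log2 scale (SE 0.19, adjusted p = 0.0012, edgeR). In the knock-down the log2 fold change of -0.72 missed the threshold (SE 0.18, adjusted p = 0.028, edgeR), and without hairpin #1 it was -0.99 with an adjusted p of 3.7e-04. Without #2 or #3 it was -0.57 or -0.65 and did not pass.

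CAVIN2, a cavin that drives tubulation of caveolae and has a narrower tissue distribution, was the scarcest tested member and had the most negative fitted change in both comparisons against Control. It had 282, 301 and 346 counts in Control, 32, 148 and 68 counts with hairpins #1, #2 and #3, and 31, 22 and 42 counts in Soft. As CPM these were 13.1, 13.2 and 15.1 in Control, 1.47, 7.13 and 3.36 with the hairpins, and 1.41, 1.05 and 1.88 in Soft, all above the floor of 3 counts. Control did not overlap with either condition, and hairpin #1 lay within the Soft range. Soft libraries averaged 1.45 ± 0.416 CPM against 13.8 ± 1.12 CPM for Control (SD, n = 3 each), a log2 fold change of -3.25 (SE 0.48, adjusted p = 6.2e-04, edgeR) or 9.5-fold. The hairpin mean of 3.99 ± 2.88 CPM (SD, n = 3) gave -1.79 (SE 0.44, adjusted p = 0.024, edgeR), and without hairpin #2 the value was -2.52 (adjusted p = 0.0019, edgeR). Without #1 or #3 it was -1.40 or -1.69 and did not pass. Relative to CAVIN1, per kilobase, CAVIN2 was at 0.0122 to 0.015 in Control and at 0.00216 to 0.00395 in Soft. Hairpin #1 at 0.00176 was below both ranges, #2 at 0.0147 was within that of Control, and #3 at 0.00596 was between them.

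CAVIN3, which binds protein kinase C delta, had 0 counts in 8 libraries and 1 count with hairpin #3. It was therefore not detectable at this depth, since 0 counts allow a level of up to 0.125 to 0.156 CPM per library, and was not tested. These limits cover counting error only.

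EHD1, the member best known for returning endocytosed receptors to the surface, was at 282, 268 and 267 CPM in Control and 115, 121 and 111 CPM in Soft. With the hairpins it was at 244, 169 and 195 CPM, between Control and Soft without overlap on either side. The mean was 272 ± 8.31 (Control), 116 ± 5.1 (Soft) and 202 ± 37.8 CPM (sh_PIP4K2B, SD, n = 3 each). On the gel EHD1 fell by 1.23 on the log2 scale (SE 0.14, adjusted p = 1.3e-04, edgeR), and this call was kept under all 18 alternatives. In the knock-down the value was -0.43 (SE 0.14, adjusted p = 0.058, edgeR), and without hairpin #1 it was -0.58 with an adjusted p of 0.0026. Without #2 or #3 it was -0.31 or -0.40 and did not pass.

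EHD2, the EHD protein that sits at the caveolar neck and holds the pit at the surface, was at 516, 490 and 484 CPM in Control and 417, 426 and 423 CPM in Soft. The hairpin libraries were at 435, 506 and 469 CPM and overlapped with Control. The means were 497 ± 17.1 (Control), 422 ± 4.8 (Soft) and 470 ± 35.6 CPM (sh_PIP4K2B, SD, n = 3 each). Although the Soft libraries were all below Control, the log2 fold change of -0.24 missed the threshold (SE 0.10, adjusted p = 0.089, edgeR). It passed when Soft and Control were fitted alone (adjusted p = 1.8e-05, edgeR) and with DESeq2 (adjusted p = 0.0096). The knock-down gave -0.08 (SE 0.10, adjusted p = 0.62, edgeR), a value that turned to 0.01 when scaled by library size only. The 2 EHD genes thus parted: EHD1 per EHD2, per kilobase, was 0.43, 0.431 and 0.434 in Control and 0.218, 0.224 and 0.207 in Soft, with 0.441, 0.263 and 0.327 for the hairpins.

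EHD4, an EHD1 relative of early endosomes that is also found at caveolae, was at 65.1, 60.8 and 58.8 CPM in Control and 26.3, 28 and 26.6 CPM in Soft. Hairpins #1, #2 and #3 gave 34.2, 27.6 and 53.7 CPM, all below Control, and #2 was inside the Soft range. The means were 61.5 ± 3.21 (Control), 27 ± 0.913 (Soft) and 38.5 ± 13.5 CPM (sh_PIP4K2B, SD, n = 3 each). EHD4 fell on the gel by 1.19 on the log2 scale (SE 0.21, adjusted p = 0.0015, edgeR). The knock-down value of -0.68 missed the threshold (SE 0.21, adjusted p = 0.052, edgeR), and without hairpin #3 it was -0.99 (adjusted p = 9.8e-04, edgeR). Without #1 or #2 it was -0.60 or -0.49 and did not pass.

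PACSIN2, the F-BAR protein found at caveolae outside muscle, was at 104, 97.7 and 102 CPM in Control, 75.5, 76.4 and 96.5 CPM with hairpins #1, #2 and #3, and 77.3, 79.5 and 78.5 CPM in Soft. Both conditions were below Control without overlap, hairpin #3 by the smallest margin. The log2 fold change on the gel was -0.37 (SE 0.11, adjusted p = 0.024, edgeR), and that of the knock-down was -0.29 (SE 0.11, adjusted p = 0.11, edgeR). The Soft value passed the threshold without hairpin #1 or #3 (adjusted p = 0.0066 and 0.0011, edgeR), with DESeq2 (adjusted p = 0.0048) and in the fit of Soft and Control alone. The knock-down passed without hairpin #3 (adjusted p = 0.0044, edgeR), where the value was -0.42, and not without #1 or #2 (-0.23 and -0.24).

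PACSIN3, an F-BAR protein best known from muscle caveolae, was the one member called in the knock-down. It was at 67.3, 60.3 and 60.2 CPM in Control, at 43.3, 44.7 and 34.7 CPM with hairpins #1, #2 and #3, and at 52.8, 52.9 and 51.3 CPM in Soft. The 3 conditions did not overlap, and the hairpin libraries were the lowest. The mean was 62.6 ± 4.06 (Control), 52.3 ± 0.894 (Soft) and 40.9 ± 5.47 CPM (sh_PIP4K2B, SD, n = 3 each). The knock-down lowered it by a log2 fold change of -0.61 (SE 0.12, adjusted p = 0.009, edgeR), close to the threshold. Without any single Control or Soft library the adjusted p was between 0.024 and 0.052 (edgeR), with values of -0.64 to -0.56. A fit of sh_PIP4K2B and Control alone gave -0.62 with an adjusted p of 0.059 (edgeR). In Soft the fitted log2 fold change stood at -0.26 (SE 0.12, adjusted p = 0.096, edgeR). It passed only in the fit of Soft and Control alone (adjusted p = 2.8e-04, edgeR) and in no other alternative.

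**Figure D2:**
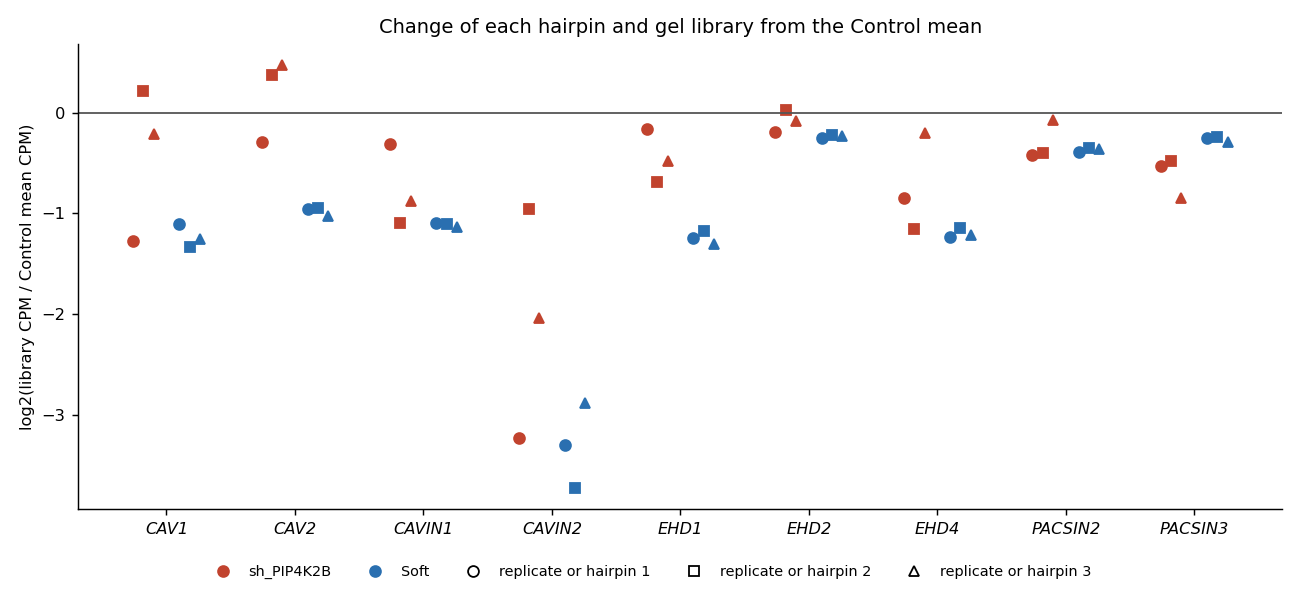
Log2 ratio of each hairpin library (red) and each gel library (blue) to the mean CPM of Control, for the 9 tested members, with the point shape giving the replicate or hairpin number and the horizontal line marking no change. The gel libraries of most genes lie together, as at -1.09, -1.10 and -1.13 for CAVIN1, but those of CAVIN2 are at -3.29, -3.72 and -2.88. The hairpins are spread for some genes, as at -1.27, 0.21 and -0.21 for CAV1. They are closer for others, as at -0.19, 0.03 and -0.08 for EHD2.

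The 3 hairpin libraries differed in how low single members were, although 6 of the 9 tested members were below Control with each hairpin. Among these, CAVIN2 was at 10.7%, 51.6% and 24.3% of the Control mean with hairpins #1, #2 and #3. PACSIN3 was at 69.2%, 71.5% and 55.4%. Single members also differed between hairpins in direction or size. With hairpin #1, CAV1 was at 41.6% of the Control mean, CAVIN2 at 10.7% and EHD4 at 55.5%, while CAVIN1 was at 80.5% and EHD1 at 89.4%. With hairpin #2, CAV1 was at 115% and CAV2 at 129%, while CAVIN1 was at 46.8%, EHD4 at 44.9% and EHD1 at 62.1%. Hairpin #3 left CAV2 at 138% and EHD4 at 87.2%, with CAVIN1 at 54.3%, CAVIN2 at 24.3% and PACSIN3 at 55.4%. The ratio of CAVIN1 to CAV1 per kilobase made these differences between hairpins visible within single libraries. It was 1.32, 1.26 and 1.12 in Control and 1.24, 1.44 and 1.34 in Soft, which overlap, but 2.38, 0.499 and 0.775 with hairpins #1, #2 and #3, all outside both ranges. With 1 library per hairpin, differences between hairpins and between libraries cannot be told apart, and no test was made among them. PIP4K2B itself was lowest with hairpin #3 and highest with #1, and no tested member followed that order. CAV2 and PACSIN2 had the reverse order.

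**Figure D3:**
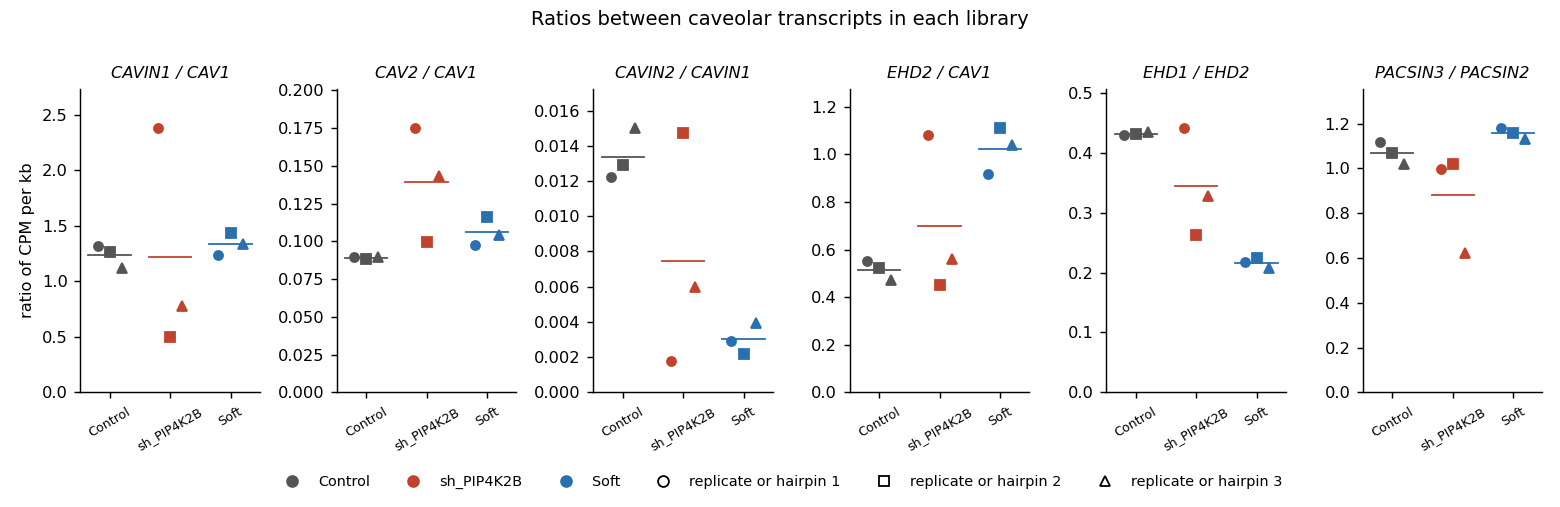
Ratios between pairs of caveolar transcripts in each library, from CPM per kilobase of canonical transcript (vertical axes, linear, from 0), with points for libraries and lines for condition means. CAVIN1 per CAV1 is similar in Control (1.12 to 1.32) and Soft (1.24 to 1.44) and spread with the hairpins (0.499 to 2.38), whereas EHD1 per EHD2 is 0.43 to 0.434 in Control and 0.207 to 0.224 in Soft.

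Levels of different members were compared per kilobase of canonical transcript, as CPM per kilobase. In Control the order was CAVIN1 (340), CAV1 (276), EHD2 (142), EHD1 (61.1), PACSIN3 (33.4), PACSIN2 (31.1), CAV2 (24.7), EHD4 (9.61) and CAVIN2 (4.53), and the libraries of no adjoining pair overlapped. In Soft CAVIN1 was still first at 158, but EHD2 at 120 and CAV1 at 119 overlapped, and EHD2 per CAV1 was 0.919, 1.11 and 1.04 in the Soft libraries against 0.55, 0.523 and 0.47 in Control. PACSIN3 at 27.9 stood above EHD1 at 26 on the gel, the reverse of their order in Control. PACSIN2 (24.1), CAV2 (12.5), EHD4 (4.21) and CAVIN2 (0.474) followed. In sh_PIP4K2B, CAV1 at 224 and CAVIN1 at 206 overlapped, as did CAV2 at 28.7, PACSIN2 at 25.5 and PACSIN3 at 21.8 in that order. EHD2 (134), EHD1 (45.4), EHD4 (6.01) and CAVIN2 (1.31) kept clear of the genes next to them in the order of means. EHD2, at 124 to 144, still overlapped with CAV1, at 115 to 319, which does not adjoin it in that order.

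Soft and sh_PIP4K2B were also compared with each other, which tests the difference between their effects. Of the 9 members 2 were called lower in Soft, CAV2 and EHD1, against 15.5% of all tested genes. CAV2 was lower in Soft by a log2 fold change of -1.20 (SE 0.18, adjusted p = 6.4e-04, edgeR), and EHD1 by -0.81 (SE 0.14, adjusted p = 0.0013, edgeR). For these and for EHD2, 3 of the 9, every Soft library was below every hairpin library, as it was for 26.7% of all tested genes. For CAV1 the difference was -0.92 (SE 0.30, adjusted p = 0.03, edgeR) and for CAVIN2 it was -1.45 (SE 0.48, adjusted p = 0.034, edgeR). Without hairpin #1, whose CAV1 and CAVIN2 lay near the gel level, both passed, at -1.24 (adjusted p = 1.2e-04, edgeR) and -1.86 (adjusted p = 0.0019, edgeR). Without hairpin #2 they were smaller, at -0.58 for CAV1 (adjusted p = 0.094, edgeR) and -0.73 for CAVIN2 (adjusted p = 0.13, edgeR). CAVIN1 (-0.38, SE 0.18, adjusted p = 0.12, edgeR) and EHD4 (-0.51, SE 0.21, adjusted p = 0.07, edgeR) did not pass. Neither did EHD2 (-0.15, SE 0.10, adjusted p = 0.25, edgeR) and PACSIN2 (-0.08, SE 0.11, adjusted p = 0.6, edgeR). PACSIN3 was the one member higher in every Soft library than in every hairpin library, by 0.36 on the log2 scale, which missed the threshold (SE 0.12, adjusted p = 0.032, edgeR). Such a separation held for 27.3% of all tested genes.

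**Figure D4:**
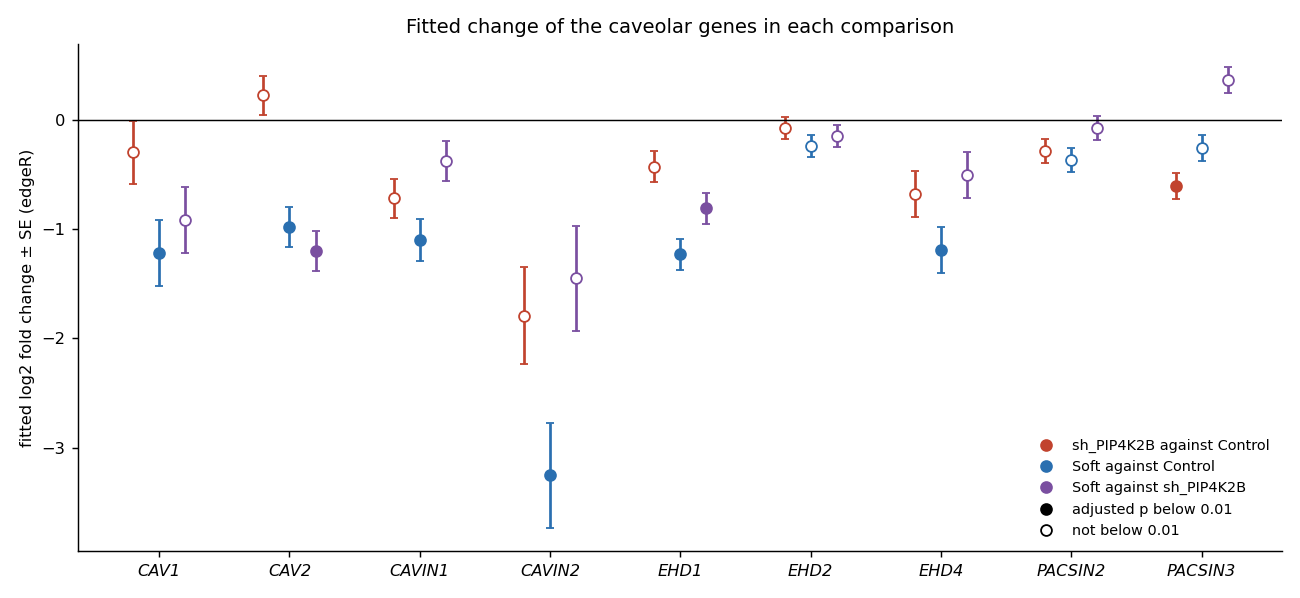
Fitted log2 fold change with its SE (bars) for the 9 tested members in the 3 comparisons, where filled points have an adjusted p below 0.01 (edgeR). For Soft against Control (blue) 6 of 9 points are filled, with CAVIN2 lowest at -3.25, for sh_PIP4K2B against Control (red) PACSIN3 alone is filled, and for Soft against sh_PIP4K2B (purple) CAV2 and EHD1 are.

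The closest relatives of the members were mostly scarce. CAV3, the muscle caveolin, and PACSIN1, the neuronal pacsin, had 0 to 2 counts in every library and were not tested. CAVIN4, the muscle cavin (MURC in the table), was at 1.63 ± 0.224 (Control), 1.17 ± 0.13 (Soft) and 1.63 ± 0.471 CPM (sh_PIP4K2B, SD, n = 3 each), and its log2 fold changes of -0.01 and -0.49 did not pass (adjusted p = 0.99 and 0.17, edgeR). EHD3, the endosomal relative of EHD1, was at 80.3, 77.6 and 72.9 CPM in Control and 70.3, 76.3 and 71.6 CPM in Soft, which overlap (log2 fold change -0.08, SE 0.24, adjusted p = 0.8, edgeR). With the hairpins it was at 27.7, 58.5 and 58.3 CPM, below every Control library, with hairpin #1 lowest (-0.68, SE 0.24, adjusted p = 0.081, edgeR).

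Among 7 tested genes of caveola regulators and linkers, FLNA alone was called, and it was lower in both comparisons against Control. Of all tested genes, 14.8% were called lower and 15.8% higher in Soft, and 2.77% lower and 2.76% higher in the knock-down. The counts of this and of each further list are to be read beside these shares. FLNA, the actin crosslinker filamin A that ties caveolae to stress fibres, fell with the hairpins from 4204 ± 196 to 2581 ± 120 CPM (SD, n = 3 each; log2 fold change -0.70, SE 0.12, adjusted p = 0.0057, edgeR). In Soft it was at 2958 ± 147 CPM (SD, n = 3; -0.51, SE 0.12, adjusted p = 0.0073, edgeR). The medians of the list were -0.17 in the knock-down and -0.05 in Soft. Of 7 tested flotillins and related scaffold proteins, 1 was called in Soft, STOM, an integral membrane protein of the stomatin family, which fell from 33.7 ± 1.4 to 17 ± 1.17 CPM (SD, n = 3; -0.99, SE 0.19, adjusted p = 0.0026, edgeR). In the knock-down edgeR called 0 of the 7 and DESeq2 called 2 higher and 1 lower, while 2 were higher and 3 lower at an unadjusted p under 0.05. The medians were -0.22 and -0.17.

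Clathrin-mediated uptake, the main alternative route, was represented by 21 tested coat and adaptor genes, of which 6 fell and 2 rose in Soft. Of all tested genes 14.8% were called lower and 15.8% higher there. DAB2, a cargo adaptor, fell from 600 ± 6.2 to 171 ± 8.16 CPM (SD, n = 3; -1.81, SE 0.37, adjusted p = 0.0034, edgeR), and PICALM, a membrane-binding clathrin assembly protein, from 386 ± 28 to 192 ± 4.64 CPM (-1.01, SE 0.19, adjusted p = 0.0022, edgeR). The actin-binding coat proteins HIP1 (1.10, SE 0.22, adjusted p = 0.0034, edgeR) and HIP1R (0.89, SE 0.13, adjusted p = 6.4e-04, edgeR) rose. Their Control means were 11.5 ± 0.428 and 31.7 ± 1.43 CPM (SD, n = 3). With the hairpins the means were 274 ± 145 (DAB2), 315 ± 88.8 (PICALM), 6.39 ± 2.4 (HIP1) and 31.4 ± 5.61 CPM (HIP1R, SD, n = 3). In the knock-down 1 of the 21 rose, the F-BAR initiator FCHO2, from 19.1 ± 1.61 to 31.6 ± 1.93 CPM (SD, n = 3; 0.73, SE 0.11, adjusted p = 0.003, edgeR). edgeR called 0 lower and DESeq2 3, with 4 lower at an unadjusted p under 0.05. The medians of the list were -0.01 in the knock-down and -0.22 in Soft.

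Of the 4 dynamins and dynamin-like scission proteins, DNM1 rose in Soft from 15.1 ± 1.77 to 39.5 ± 1.22 CPM (SD, n = 3; 1.39, SE 0.26, adjusted p = 0.0021, edgeR) and DNM1L, which divides mitochondria, fell from 123 ± 7.28 to 62.5 ± 0.869 CPM (-0.97, SE 0.10, adjusted p = 1.0e-04, edgeR). In the knock-down 0 of the 4 were called by edgeR or DESeq2, and 0 had an unadjusted p under 0.05. The medians were -0.02 in the knock-down and 0.41 in Soft. Among 11 endocytic recycling partners of EHD proteins, 3 fell and 1 rose in Soft, against 14.8% and 15.8% of all tested genes. EEA1, the early endosome tether, fell from 57.5 ± 3.91 to 22.5 ± 2.45 CPM (SD, n = 3; -1.35, SE 0.15, adjusted p = 1.2e-04, edgeR), and RAB11A, a GTPase of recycling endosomes, by 0.73 on the log2 scale (SE 0.10, adjusted p = 3.3e-04, edgeR). MICALL2, a Rab effector of junctional traffic, rose by 0.81 (SE 0.15, adjusted p = 0.0021, edgeR). In the knock-down RAB8A, a GTPase of surface delivery, fell from 103 ± 4.1 to 60.9 ± 10.8 CPM (SD, n = 3; -0.76, SE 0.13, adjusted p = 0.0056, edgeR). The medians were 0.07 and -0.35.

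Of 25 tested other BAR domain proteins, 3 rose and 1 fell in Soft, against 15.8% and 14.8% of all tested genes. MTSS1, which carries an I-BAR domain, rose from 2.21 ± 0.526 to 7.24 ± 0.492 CPM (SD, n = 3; 1.71, SE 0.43, adjusted p = 0.0095, edgeR), and SNX9, which acts in clathrin-coated pits, from 76.6 ± 1.3 to 176 ± 1.68 CPM (1.20, SE 0.21, adjusted p = 0.0014, edgeR). PSTPIP2, an F-BAR protein like the pacsins, fell from 20.9 ± 0.397 to 6.82 ± 0.635 CPM (SD, n = 3; -1.61, SE 0.18, adjusted p = 1.5e-04, edgeR). In the knock-down edgeR called 1 of the 25 higher and 0 lower, and DESeq2 called 2 higher and 1 lower, while 4 were higher and 1 lower at an unadjusted p under 0.05. The medians were 0.11 in the knock-down and 0.22 in Soft, above 0 where that of the caveolar genes was below it. No test was made between these lists and the caveolar genes.

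Over the 9 libraries the genes whose log2 CPM followed CAV1 most closely, among 9449 genes with a mean of at least 10 CPM, were STRAP (Pearson's r = 0.992), MECOM (0.990), CITED2 (0.989), GLO1 (0.987) and GLTP (0.986). Each was lowest with hairpin #1 among the hairpins and highest with #2, as CAV1 was. CITED2, a transcriptional co-regulator, was at 151, 502 and 384 CPM with hairpins #1, #2 and #3, with means of 414 CPM in Control and 185 CPM in Soft. CAVIN1 was followed by NCLN (0.999), PPM1G (0.993), PSMD2 (0.992), SEC22C (0.991) and EXOSC9 (0.984). Here hairpin #1 was the highest of the hairpins. PSMD2, a subunit of the proteasome, was at 766, 470 and 578 CPM with hairpins #1, #2 and #3, with means of 952 CPM in Control and 507 CPM in Soft. These correlations describe 9 points that share 3 conditions and their library preparation, and they carry no test. The genes were picked by the same correlations, so a shared order of the hairpins largely follows from the choice.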

How the data were processed

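RNA-seq libraries of hTERT-RPE1 cells (3 Control, 3 sh_PIP4K2B, 3 Soft) were analysed from the table of estimated counts per gene symbol that the authors deposited, neither scaled nor pooled. The authors prepared libraries with the Illumina Stranded mRNA Prep kit and aligned paired reads of 75 nt to GRCh38/hg38 with STAR. The submitters' processing notes also name Salmon, without its role, and the annotation and strand setting of the counting are not given in the sources used here. Of the deposited expected counts 12.3% were not whole (tolerance 1e-6), and all were rounded. Totals of 19217346 to 24020799 counts per library put 3 counts at 0.125 to 0.156 CPM.

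Groups followed the labels. The test was that of edgeR 4.0.16 under R 4.3.3 (filterByExpr, TMM, quasi-likelihood F test, 1 fit over the 9 libraries, 13784 of 26475 genes kept, Benjamini-Hochberg threshold 0.01), and the SE was taken from the F statistic. Alternatives were DESeq2 1.42.0, other filters, scalings and thresholds, leaving out each library, a replicate block, and fits limited to 2 conditions. CPM per kilobase used the canonical transcript of GENCODE release 44, and promoters came from RefSeq.

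The members and all gene lists were chosen with earlier results of these data known, and the lists were written by hand from general knowledge. The text names every member, the targeted gene, the other members of the families, up to 2 highest and 2 lowest called genes of each list and comparison against Control, and the 5 genes nearest to CAV1 and to CAVIN1. The gene that this rule takes from the other BAR domain proteins in the knock-down is not reported here, and called genes beyond the rule are given as counts only. Ratios are descriptions without a test. The study's methods name no pairing of libraries, so the main fit did not use the numbers as pairs. In sh_PIP4K2B the number is that of the hairpin. Libraries with the same number also did not deviate together (correlations of -0.12 to 0.04). Hairpin sequences and protein sequences were not used here.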

Additional observations from a re-analysis of the deposited data

Results flagged for a closer look

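CAV2 and EHD1 differed between the gel and the knock-down by a test of the difference itself. CAV2 was lower in Soft than in sh_PIP4K2B by a log2 fold change of -1.20 (SE 0.18, adjusted p = 6.4e-04, edgeR), with means of 36.8 and 84.7 CPM and with Soft lower in 3 of 3 libraries than any hairpin library. Its value against Control was -0.98 in Soft and 0.22 in sh_PIP4K2B. EHD1 was lower in Soft by -0.81 (SE 0.14, adjusted p = 0.0013, edgeR), with means of 116 and 202 CPM and again no overlap between the libraries. Against Control its value was -1.23 in Soft and -0.43 in sh_PIP4K2B. CAV2 kept this call under all 18 alternatives, and EHD1 lost it in 1 of them, the threshold of 0.001.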

How the results depend on the processing

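Each of 27 fold changes (9 members in 3 comparisons) was compared under 18 alternatives, which gave 486 values. The thresholds of 0.05 and 0.001 reuse the values of the main fit, so there only the call could change. Leaving out a library of the condition not compared acts mainly on the p-value. Of these, 432 kept their direction and their side of the threshold, 26 kept the direction and lost the call, 25 kept the direction and gained one, and 3 changed sign. The sign changed for CAV1 in the knock-down without hairpin #1 (0.01, and -0.65 without #2), for EHD2 in the knock-down with scaling by library size only (0.01), and for PACSIN2 in Soft against sh_PIP4K2B without hairpin #3 (0.04, and -0.15 without #1). None of these 3 results was called in any form. The calls lost were mostly those of CAV1 in Soft (10 of 18) and PACSIN3 in the knock-down (11 of 18). In the knock-down, where 1 member was called lower, the number called was 3 at a threshold of 0.05 and with DESeq2, and 0 at 0.001, without a filter on low counts, with scaling by library size only, and in the fit of only the 2 conditions compared. With each library left out in turn it ran from 0 to 4. With the replicate number as a block it was 0, and the block also left 5 of the 6 calls in Soft against Control (without CAV1) and the same 2 in Soft against sh_PIP4K2B. These numbers pair no cultures in the labels. In Soft against Control, 6 calls became 2 at a threshold of 0.001 (CAVIN2 and EHD1), 8 with DESeq2, 9 in the fit of Soft and Control alone, and 4 to 7 with each library left out. The share of all tested genes called was taken for the main fit only. Counts of members under the alternatives therefore have no such share beside them and do not show how far the members stand out. In Soft against sh_PIP4K2B, 2 calls became 5 at 0.05, 1 at 0.001 and 4 with DESeq2, and ran from 2 to 4 with each library left out. Scaling by library size only put the median of all tested genes at 0.14 in the knock-down and 0.12 in Soft, in place of 0.05 and 0.01. Where a call was lost or gained under a stated threshold or with fewer libraries, that change itself is what differed, and for the other alternatives the cause was not tested. Depth limits only CAVIN3, CAV3 and PACSIN1, which had at most 2 counts.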
